A study of Equus caballus with 15 samples.

Results

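Transcripts of the AP-1 transcription factors were followed in equine macrophages exposed to IL-1ß and to 3 orthobiologic therapies (OTs). The genes were chosen by their symbols from the FOS, JUN and BATF members of the family. They were 9 of the 16932 listed genes, namely FOS, FOSB, FOSL1, FOSL2, JUN, JUNB, JUND, BATF and BATF3. BATF2 was also listed but was placed in a further list of partner genes and not among these members. All 9 passed the filter for testing, a mean of at least 1 CPM (reads of the gene scaled to a fixed library total) over all libraries, as did 11628 genes in total.

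Macrophages were grown from peripheral blood mononuclear cells of 2 horses, described in the study's methods as geldings aged 3 and 5 years, over 5 days with M-CSF at 30 ng/ml. From poly(A)-selected RNA 15 libraries were sequenced, 3 for each of 5 conditions. The untreated condition had neither cytokine nor OT. The other 4 conditions all received IL-1ß at 10 ng/ml, alone or with an OT that made up 25% of the medium. The OT called MSC-CM was medium conditioned by mesenchymal stromal cells of bone marrow. PRP lysate was made by lysing the platelets of platelet rich plasma, and ACS, autologous conditioned serum, is serum incubated to enrich antagonists of cytokines. The donors of each OT, 3 horses, were not the macrophage donors, so these libraries replicate the product, whereas the study describes the untreated and the IL-1ß libraries as technical replicates, and p-values for those conditions then measure the spread between libraries only. Treatment lasted 24 h. The study's methods give a wash and 24 h of further culture before collection, while the sample descriptions place collection right after the treatment, so the time since IL-1ß was added is uncertain.

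AP-1 is a family of basic leucine zipper proteins that act only as dimers. FOS proteins cannot pair with themselves and bind DNA together with a JUN protein, JUN proteins pair with themselves or with FOS, and BATF proteins have no activation domain, pair with JUN proteins and bind with IRF4 or IRF8. In macrophages MAP kinases downstream of cytokine and pattern recognition receptors drive both the transcription and the phosphorylation of these proteins, and FOS, FOSB, JUN and JUNB are immediate early genes whose transcripts rise within minutes and decay quickly. The values below describe transcripts at a single time and not dimers or their activity.

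The libraries held 28410735 to 47894072 reads, and the FOSL1 transcript, with the fewest, was covered by 211 to 845 reads. Macrophage markers were abundant (9 of 9 listed, 2038 to 6410 CPM in sum), but the 6 T cell markers, among them CD3E, also summed to 501 to 1445 CPM, so the cultures held T cell transcripts. In bulk RNA, fewer cells of a type and less RNA per cell cannot be told apart. IL-1ß replicate 3 (score -103) and PRP lysate replicate 1 (score -51.7) stood apart on the first principal component, which held 55.4% of the variance, and all other libraries lay between -20.7 and 26.6. Both carried the highest T cell sums, 1403 and 1445 CPM. They are marked in the plots.

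In EquCab3.0 the FOS gene (ENSECAG00000014260) lies at chr24:20589693-20592422 and BATF (ENSECAG00000016422) at chr24:20794304-20814733, with JDP2, a repressor of the same family, between them at chr24:20710931-20745873. The remaining FOS genes lie apart, FOSB (ENSECAG00000018002) at chr10:16185414-16191249, FOSL1 (ENSECAG00000023092) at chr12:29688056-29693296 and FOSL2 (ENSECAG00000017657) at chr15:68998233-69017716. JUN (ENSECAG00000024055) lies at chr2:1285586-1323712, JUNB (ENSECAG00000003816) at chr7:46879537-46880581 and JUND (ENSECAG00000038226) at chr21:3592874-3593924. BATF3 (ENSECAG00000011042) lies at chr5:23242809-23254504, with ATF3 starting 50655 bp beyond it. The gene models span from 1045 bp (JUNB) to 38127 bp (JUN). Because CPM are not corrected for transcript length, the levels of different members are not compared here.

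The 9 members differed in how far they varied. Across the 15 libraries the highest value was 4.54 times the lowest for FOS, 3.75 times for BATF, 3.56 times for FOSB and 3.25 times for FOSL1. The ratio was 2.57 for JUND, 2.47 for BATF3, 1.95 for JUN, 1.90 for JUNB and 1.67 for FOSL2. Over all libraries the largest ratios thus belonged to members of both the FOS and the BATF group, and FOSL2 had the smallest. The 2 libraries that stood apart set part of this order. IL-1ß replicate 3 held the highest BATF and BATF3 and the lowest FOSB and FOSL2, and PRP lysate replicate 1 the highest JUN, JUNB and JUND.

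**Figure D1:**
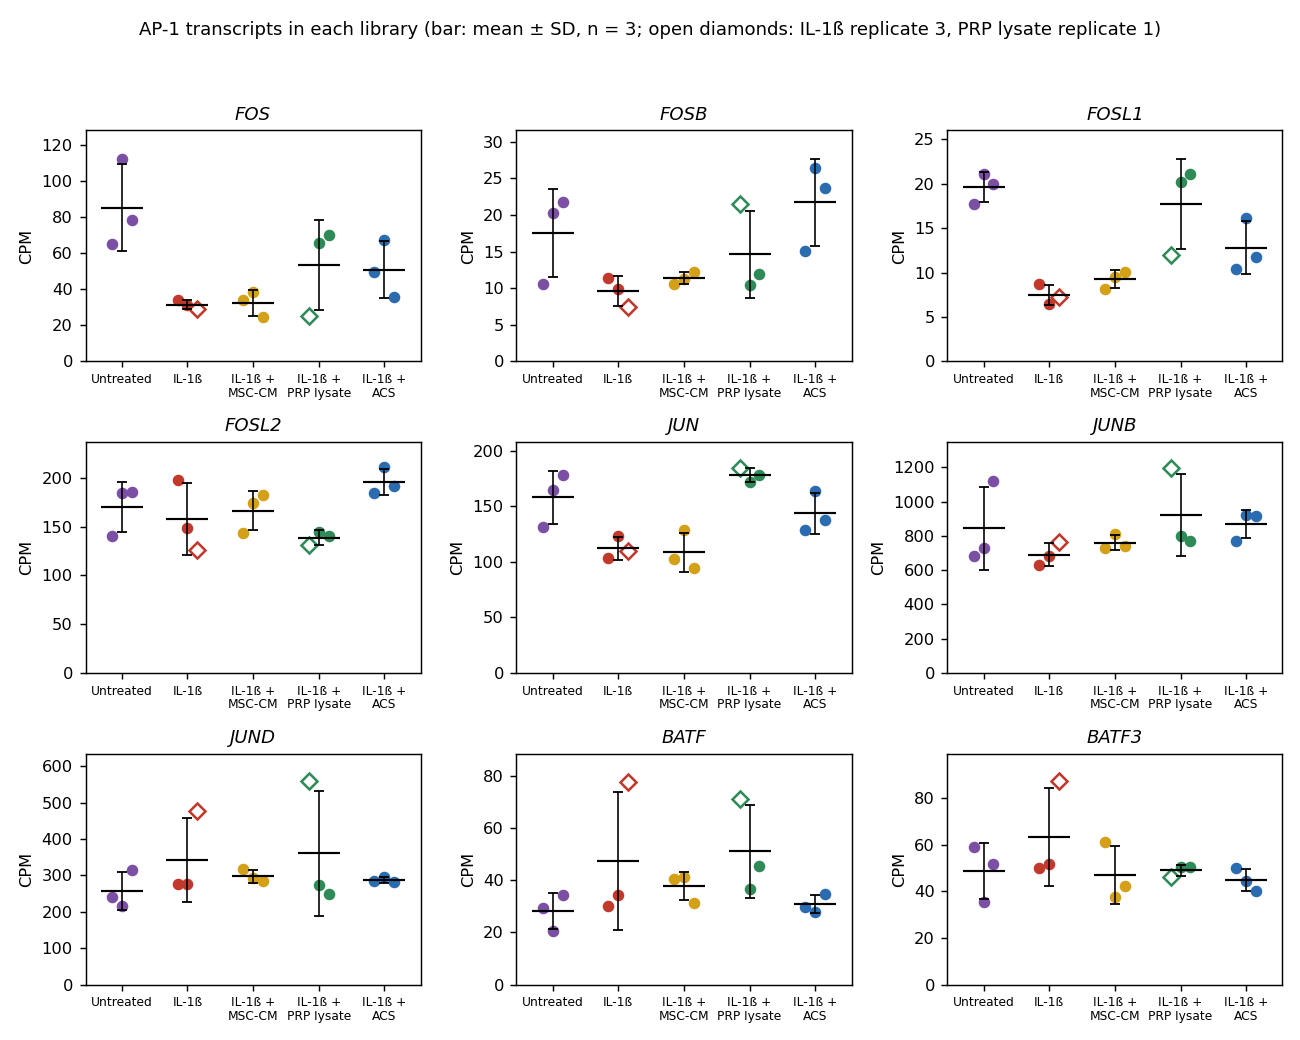
CPM of the 9 AP-1 members (vertical axes, each from 0) in the 3 libraries of each condition (horizontal axes), with the mean and SD as black bars. Open diamonds mark IL-1ß replicate 3 and PRP lysate replicate 1; FOSL1 with IL-1ß (6.50 to 8.73 CPM) lies wholly below FOSL1 in untreated macrophages (17.7 to 21.1 CPM), and JUND and BATF reach their highest values in the open diamonds.

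IL-1ß macrophages were compared with untreated macrophages to ask how the cytokine alone changed the family. FOSL1 was lower in all IL-1ß libraries and was the only member called, where a call needs both a 2-fold difference and an adjusted p-value no higher than 0.05 (limma, Benjamini-Hochberg over all genes tested). That is 1 of 9 members, against 0.292% of all genes tested. FOS fell short of the threshold at a larger difference, and FOS, FOSL1 and JUN were the 3 members whose groups did not overlap (16.2% of all genes tested). The median log2 fold change of the members was -0.26, against -0.07 over all genes.

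Each OT was then compared with IL-1ß alone. With MSC-CM, 0 of 9 members were called by limma, DESeq2 or edgeR, 0 reached an unadjusted p-value under 0.05, and 0 had groups that did not overlap, against 0% of all genes called and 8.79% not overlapping. With PRP lysate, FOSL1 was called higher, 1 of 9 members against 3.09% of all genes, and the values of FOSL1, JUN and JUNB did not overlap with those of IL-1ß (15% of all genes). With no fold required, FOSL1 and JUN passed, as did 4.94% of all genes. With ACS, 0 members were called by limma, against 2.21% of all genes, 3 had an unadjusted p-value under 0.05, DESeq2 called 1 and edgeR 0. Here 6 of 9 members did not overlap with IL-1ß, 5 of them higher, against 26.2% of all genes. Of all 11628 genes tested, 2387 had an unadjusted p-value under 0.05 with ACS, 2038 with PRP lysate, 651 with MSC-CM and 1506 with IL-1ß against untreated. Counts at that level, here and for the lists below, are to be read beside these. The median log2 fold change of the members was 0.02 for MSC-CM, 0.39 for PRP lysate, 0.33 for ACS. That of all genes lay above 0 too, at 0.16 for MSC-CM, 0.11 for PRP lysate, 0.13 for ACS, and relative to this shift FOSL1 and JUN with PRP lysate were higher by 1.00 and 0.56. The 3 comparisons share the IL-1ß libraries, so their values are set side by side and not correlated.

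**Figure D2:**
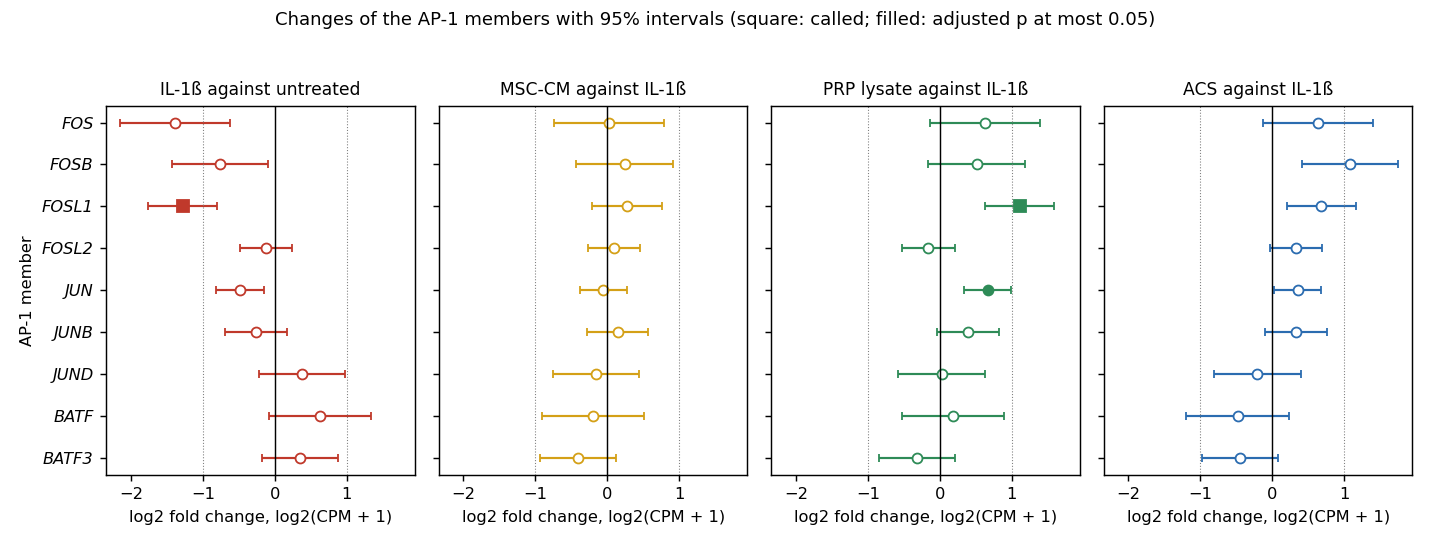
Log2 fold change of each member (rows) on the log2(CPM + 1) scale with its 95% interval from limma, in the 4 comparisons of the study. Squares are called, filled symbols pass the adjusted p-value, and dotted lines mark a 2-fold difference; FOSL1 is called with IL-1ß (-1.28) and with PRP lysate (1.11), and JUN is filled but below 2-fold with PRP lysate (0.67).

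FOSL1 encodes FRA-1, a FOS protein without the strong activation domain of FOS that accumulates late after stimulation. Its values were 17.7, 21.1 and 19.99 CPM in untreated macrophages and 8.73, 6.50 and 7.30 CPM with IL-1ß alone. They were 8.15, 9.51 and 10.1 CPM with MSC-CM, 11.9, 20.2 and 21.1 CPM with PRP lysate, and 10.4, 16.1 and 11.8 CPM with ACS. Untreated libraries were all high and IL-1ß libraries all low. MSC-CM overlapped with IL-1ß alone, whereas every PRP lysate and every ACS library exceeded every IL-1ß library. From 19.6 ± 1.70 CPM (SD, n = 3) untreated, the level was 7.51 ± 1.13 CPM with IL-1ß, a log2 fold change of -1.28 (SE 0.22, limma adjusted p = 0.0352). With MSC-CM it was 9.26 ± 1.00 CPM, still below untreated (log2 fold change -1.01, limma adjusted p = 0.0404). With PRP lysate it was 17.8 ± 5.06 CPM, above IL-1ß (log2 fold change 1.11, SE 0.22, limma adjusted p = 0.0108), and 12.8 ± 2.97 CPM with ACS (log2 fold change 0.68, SE 0.22, limma adjusted p = 0.122).

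These FOSL1 calls rested on few libraries. The fall with IL-1ß remained called when IL-1ß replicate 3 was left out (limma adjusted p = 0.0489) and was lost when any of the other 5 libraries was (adjusted p up to 0.160), with the log2 fold change between -1.38 and -1.19 throughout. It was also lost when all ACS libraries were left out (adjusted p = 0.0973) and in a fit of these 2 conditions alone (adjusted p = 0.472). Without both libraries that stood apart it was -1.27 (adjusted p = 0.00605). The rise with PRP lysate was lost without IL-1ß replicate 2, PRP lysate replicate 2 or PRP lysate replicate 3, with an adjusted p of up to 0.0581 and a log2 fold change between 0.97 and 1.36. Its largest value came without PRP lysate replicate 1, which had the lowest FOSL1 of its group. In a fit of PRP lysate and IL-1ß alone it was also lost (adjusted p = 0.292), and neither call held in the fit with the replicate block (adjusted p = 0.252 with IL-1ß and 0.0537 with PRP lysate). That fit also left out ACS. The numbers did not pair these conditions, with correlations of same-numbered libraries across genes of -0.77, 0.47 and -0.70 for PRP lysate and IL-1ß and -0.47, 0.54 and 0.41 for IL-1ß and untreated. The part of the block in these losses therefore cannot be told. The lower level with MSC-CM than in untreated macrophages lost its call whichever single library was left out (adjusted p from 0.117 to 0.161).

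FOS, the founding member and a classical immediate early gene, had 65.5, 112 and 78.7 CPM in untreated macrophages. IL-1ß libraries had 33.9, 31.5 and 28.9 CPM, and MSC-CM libraries 34.0, 38.4 and 24.7 CPM. PRP lysate libraries had 25.0, 66.0 and 70.1 CPM and ACS libraries 49.6, 67.2 and 35.7 CPM. Every IL-1ß and every MSC-CM library was below every untreated library, and PRP lysate replicate 1 lay with the IL-1ß libraries while its other libraries did not. The mean was 85.5 ± 24.1 CPM untreated and 31.4 ± 2.51 CPM with IL-1ß (SD, n = 3), a log2 fold change of -1.38 (SE 0.35) that missed the threshold (limma adjusted p = 0.126). DESeq2 on the recovered reads called it (adjusted p = 0.00802), edgeR did not (adjusted p = 0.117), and limma called it without both libraries that stood apart (adjusted p = 0.0209). MSC-CM lay at a similar distance from untreated (log2 fold change -1.36, limma adjusted p = 0.0730), and this difference was called with TMM scaling (adjusted p = 0.0490), RLE scaling (0.0474), DESeq2 (0.00134) and a fit of both groups alone (0.0162), but not with edgeR (0.0554). PRP lysate had 53.7 ± 25.0 CPM, a log2 fold change of 0.62 against IL-1ß (limma adjusted p = 0.404) that came to 1.09 (adjusted p = 0.0343) without PRP lysate replicate 1, so that this library decides the call. ACS had 50.9 ± 15.8 CPM (log2 fold change 0.64, limma adjusted p = 0.289).

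FOSB, whose full-length protein resembles FOS, was highest with ACS. Its values were 15.1, 26.4 and 23.6 CPM there and 11.4, 9.94 and 7.43 CPM with IL-1ß, and the groups did not overlap. Untreated libraries held 10.6, 20.2 and 21.7 CPM, MSC-CM libraries 10.6, 11.3 and 12.3 CPM, and PRP lysate libraries 21.5, 10.5 and 11.9 CPM. The high PRP lysate value belonged to replicate 1. The ACS mean of 21.7 ± 5.93 CPM exceeded the IL-1ß mean of 9.60 ± 2.02 CPM (SD, n = 3) by a log2 fold change of 1.08 (SE 0.31), which missed the threshold (limma adjusted p = 0.0809). DESeq2 called it (adjusted p = 0.0302), as did limma without IL-1ß replicate 1 (adjusted p = 0.0492). IL-1ß against untreated gave -0.76 (limma adjusted p = 0.324) with overlapping groups.

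FOSL2 encodes FRA-2, the other FOS protein that lacks a strong activation domain, and had the smallest ratio of highest to lowest library, though not the narrowest range of group means. Its group means ran from 139 ± 7.27 CPM with PRP lysate to 196 ± 13.4 CPM with ACS (SD, n = 3). These 2 groups did not overlap, as in 15.6% of all genes tested (log2 fold change -0.49 for PRP lysate against ACS, limma adjusted p = 0.652). Untreated (170 ± 25.9 CPM), MSC-CM (166 ± 20.3 CPM) and IL-1ß macrophages (158 ± 36.7 CPM) lay between them. In the 4 comparisons of the study its log2 fold change lay between -0.16 and 0.33, and the 95% intervals lay between -0.52 and 0.70. FOSL2 thus did not share the low level that FOSL1 and FOS had with IL-1ß, although no test of the difference between genes was made.

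JUN, the archetypal partner of FOS, was highest with PRP lysate. Its values were 184, 172 and 178 CPM there, 103, 123 and 110 CPM with IL-1ß and 102, 128 and 94.6 CPM with MSC-CM. Untreated libraries had 131, 165 and 178 CPM and ACS libraries 129, 164 and 138 CPM. The PRP lysate libraries were tight and lay above all IL-1ß and all MSC-CM libraries, and PRP lysate replicate 1 was not set apart for this gene. The PRP lysate mean of 178 ± 6.16 CPM exceeded that of IL-1ß, 112 ± 10.0 CPM (SD, n = 3), by a log2 fold change of 0.67 (SE 0.15, limma adjusted p = 0.0217), which is 1.59-fold and below the 2-fold limit. The adjusted p was 0.0578 after scaling by RLE size factors (log2 fold change 0.57), 0.0488 with TMM factors, 0.0265 with DESeq2, 0.0661 with edgeR and 0.0423 without both libraries that stood apart. It was 0.221 in a fit of both groups alone, 0.0872 with the replicate block and from 0.0384 to 0.0743 when 1 library was left out. JUN was also higher with PRP lysate than with MSC-CM (log2 fold change 0.72, SE 0.15, limma adjusted p = 0.0157). The adjusted p was 0.0775 in a fit of both groups alone and from 0.0125 to 0.101 when 1 library was left out. That comparison held 0 called members of 9 by limma and by edgeR and 1 by DESeq2, with 2 at an unadjusted p-value under 0.05. Over all genes, 2.61% were called, 4.22% passed the adjusted p-value at any fold and 1690 of 11628 had an unadjusted p-value under 0.05. The 0.72 is also the difference between the effects of the 2 OTs on JUN, since both are measured from the same IL-1ß libraries. FOSL1 had a log2 fold change of 0.83 there (limma adjusted p = 0.0547). With the replicate number as a block in the fit of all numbered libraries the adjusted p was 0.0727 for JUN, which no longer passed, and 0.163 for FOSL1. In a blocked fit of the MSC-CM and PRP lysate libraries alone, chosen after seeing the data, it was 0.0284 for JUN and 0.0475 for FOSL1, so the result depends on which libraries enter the block. IL-1ß against untreated gave a JUN log2 fold change of -0.48 (limma adjusted p = 0.207) with groups that did not overlap, and ACS against IL-1ß 0.35 (limma adjusted p = 0.221).

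JUNB, which competes with JUN for FOS partners and activates more weakly at many sites, had group means of 846 ± 242 CPM untreated, 690 ± 67.7 CPM with IL-1ß, 761 ± 44.5 CPM with MSC-CM, 922 ± 238 CPM with PRP lysate and 869 ± 83.6 CPM with ACS (SD, n = 3). PRP lysate libraries (1196, 803 and 768 CPM) all exceeded IL-1ß libraries (628, 681 and 762 CPM), the closest pair by few CPM, and so did ACS libraries (773, 920 and 915 CPM). Neither difference passed (log2 fold changes 0.39 and 0.33, limma adjusted p = 0.331 and 0.307). The highest PRP lysate value was that of replicate 1. Without both libraries that stood apart the PRP lysate difference was 0.26.

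JUND, the JUN protein with the steadiest expression in most cells, was even in most libraries and high in 2. Replicate 3 with IL-1ß had 477 CPM and PRP lysate replicate 1 had 559 CPM, while the other 13 libraries lay between 217 and 317 CPM. The 2 high values are the 2 libraries that stood apart. Against untreated macrophages (241, 217 and 316 CPM) IL-1ß gave a log2 fold change of 0.38 (limma adjusted p = 0.563), and 0.12 without those libraries.

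BATF, known from T and B cells and induced in activated myeloid cells, had the same pattern. Its values were 77.7 CPM in IL-1ß replicate 3 and 71.1 CPM in PRP lysate replicate 1, and 20.7 to 45.6 CPM in the others. IL-1ß against untreated gave a log2 fold change of 0.62 (limma adjusted p = 0.439), and 0.21 without both libraries. PRP lysate (71.1, 36.6 and 45.6 CPM) lay above untreated (29.5, 20.7 and 34.4 CPM) in every library. The groups of that comparison did not overlap in 18.6% of all genes tested. The log2 fold change of BATF was 0.81 (limma adjusted p = 0.297), and 0.55 without both libraries. BATF3, needed for type 1 dendritic cells, was highest in IL-1ß replicate 3 at 87.5 CPM and lay between 35.4 and 61.1 CPM elsewhere, PRP lysate replicate 1 included. All ACS libraries (49.8, 44.5 and 40.2 CPM) lay below all IL-1ß libraries (50.2, 51.9 and 87.5 CPM) by a narrow margin, with a log2 fold change of -0.44 (limma adjusted p = 0.285) that was -0.19 without both libraries that stood apart. Of the 5 type 1 dendritic cell markers, which summed to 13.9 to 38.0 CPM, XCR1 and CLEC9A were at 0 in 7 and in 14 of the 15 libraries, whereas CADM1, FLT3 and ZBTB46 averaged 16.7, 2.65 and 2.87 CPM and were at 0 in none.

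**Figure D3:**
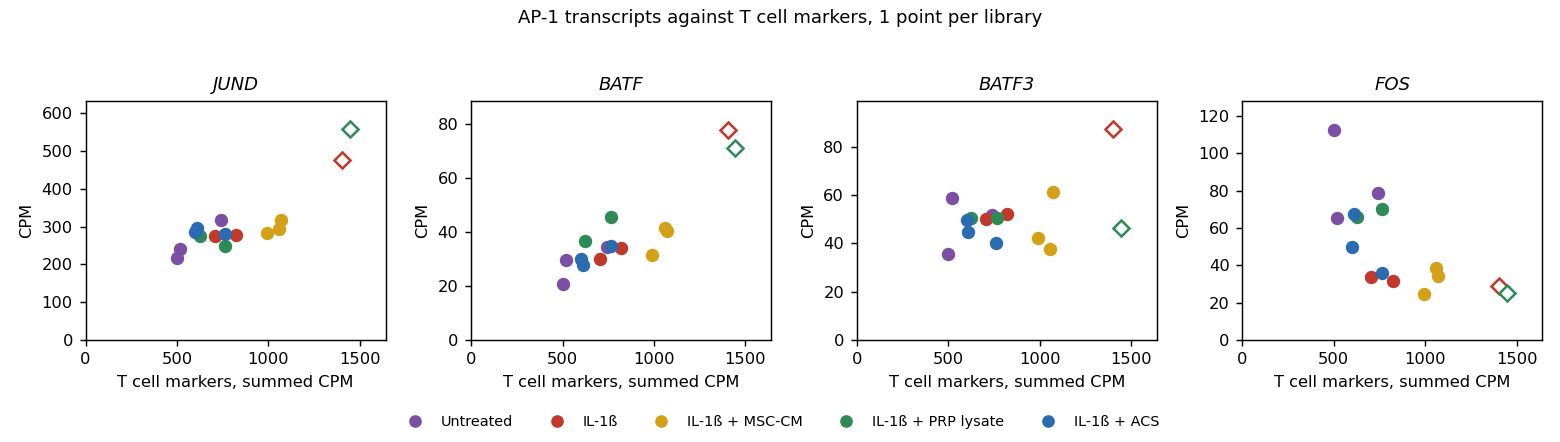
CPM of JUND, BATF, BATF3 and FOS (vertical axes, from 0) against the summed CPM of 6 T cell markers (horizontal axes, from 0), 1 point per library coloured by condition, with open diamonds for IL-1ß replicate 3 and PRP lysate replicate 1. The diamonds lie at the right, at 1403 and 1445 CPM, where JUND and BATF are highest and FOS is among its lowest values.

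The T cell marker CD3E varied with some members, most with BATF and JUND over all 15 libraries and most with FOS over 13. Over the 15 libraries the Pearson correlation with CD3E, a component of the T cell receptor complex, was 0.89 for BATF, 0.88 for JUND, 0.45 for BATF3, 0.31 for JUNB, -0.75 for FOS, -0.59 for FOSL1, -0.57 for FOSL2, -0.28 for FOSB and -0.25 for JUN (log2(CPM + 1), conditions pooled). Over the 13 libraries without the 2 that stood apart it was, in the same order, 0.67, 0.65, 0.16, 0.01, -0.71, -0.64, -0.22, -0.38 and -0.54. The summed T cell markers, 6 of 6 above a mean of 1 CPM in every group, ranged from 501 to 741 CPM in untreated, 706 to 1403 CPM in IL-1ß, 991 to 1071 CPM in MSC-CM, 625 to 1445 CPM in PRP lysate and 601 to 764 CPM in ACS libraries. Untreated macrophages, with the highest mean FOS and FOSL1, had lower T cell sums than MSC-CM libraries, which were low in both. Yet IL-1ß replicate 1 had a lower T cell sum (706 CPM) than untreated replicate 3 (741 CPM). FOS was 33.9 CPM in the former against 78.7 CPM in the latter, and FOSL1 8.73 against 19.99 CPM. PRP lysate replicate 1 also had the lowest sum of macrophage markers, 2038 CPM, and the highest sum of NK cell markers, 1066 CPM. The summed neutrophil markers were 485 to 546 CPM with PRP lysate and 530 to 759 CPM with ACS against 311 to 391.8 CPM with IL-1ß, without overlap, nearly all of it CSF3R, while MPO, ELANE and S100A12 averaged 0.780, 0.109 and 0.618 CPM. The part of these cells in the differences of FOS, FOSL1, JUN, JUND and BATF was not tested.

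The order of neighbouring conditions was not settled for any member. The means of each member were put in order, which sets the closest conditions side by side. Few calls could therefore arise between neighbours, and their number says nothing about the members. Of the 36 pairs of neighbouring conditions 0 were called by limma, and the smallest adjusted p was 0.221, for JUN with ACS against IL-1ß. In 2 of the 36 pairs the groups did not overlap. These were JUN with ACS against IL-1ß (26.2% of all genes tested) and FOSL1 with ACS against MSC-CM (35.1%). Only differences between conditions further apart in the order passed. IL-1ß and MSC-CM held the lowest 2 means for FOS, FOSB, FOSL1, JUN and JUNB. For BATF and JUND untreated macrophages had the lowest mean, and for BATF3 ACS had it.

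Of the comparisons with untreated macrophages, that of MSC-CM held 1 called member of 9, FOSL1 (0.662% of all genes). PRP lysate and ACS against untreated held 0 each by limma, DESeq2 and edgeR, with 1 member each at an unadjusted p-value under 0.05. Over all genes 1.6% and 0.37% were called, and 1489 and 889 of 11628 had an unadjusted p-value under 0.05. For PRP lysate the 95% interval of the log2 fold change still allowed differences, from -0.65 to 0.31 for FOSL1 and from -0.14 to 0.51 for JUN. ACS against MSC-CM and PRP lysate against ACS also held 0 by the 3 tools, with 2 members and 1 member at an unadjusted p-value under 0.05. Over all genes 1.23% and 0.0946% were called there, and 1574 and 603 had an unadjusted p-value under 0.05. The interval for FOSL1 in PRP lysate against ACS ran from -0.06 to 0.91.

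Within the family, FOS, FOSL1 and JUN varied together over the libraries. The correlation of FOSL1 with FOS was 0.85 over 15 libraries (0.89 over 13), that of FOSL1 with JUN 0.77 (0.83) and that of FOS with JUN 0.62 (0.86). FOSB and JUNB correlated at 0.69 (0.71), JUN and JUNB at 0.64 (0.58) and FOSB and FOSL2 at 0.58 (0.73). JUND and BATF correlated at 0.86, and at 0.48 over 13 libraries. FOSL2 was at 0.13 with FOSL1 and -0.04 with JUN (-0.06 and -0.03 over 13), and ran against BATF at -0.72 (-0.51) and against JUND at -0.46, which became 0.20 over 13 libraries. These values describe the libraries, which share their conditions, their depth and their T cell content.

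Among all genes tested, the transcript most like FOSL1 was SPRY2, a feedback inhibitor of receptor tyrosine kinase signalling (Pearson r = 0.93 over 15 libraries, 0.94 over 13), followed by FKBP14 (0.92) and RAB7A (0.92). That most like JUN was DUSP1, a phosphatase of MAP kinases (0.92, and 0.97 over 13), followed by ARF2 (0.91) and NCKIPSD (0.90). For JUNB it was IER5, another immediate early gene (0.93), then REXO1 and PHLDB3 (both 0.92). FOS was closest to ATP6V1B2, a subunit of the vacuolar proton pump (0.92), CD300LB (0.92) and IL1RL2 (0.90), and FOSB to ZNF250 (0.94), PRPF40B (0.90) and GPC1 (0.89). FOSL2 had TTLL3 (0.87), HS3ST3B1 (0.87) and WDFY2 (0.86), which came to 0.80, 0.84 and 0.77 over 13 libraries. The highest likenesses belonged to JUND, with PLAAT3 (0.97), SH3BP1 (0.96) and TUBG1 (0.96), and to BATF, with MAD1L1 (0.97), LPCAT4 (0.96) and UBE2S (0.96). Without the 2 libraries that stood apart the first 3 came to 0.88, 0.79 and 0.84 and the others to 0.91, 0.94 and 0.84. BATF3 was nearest to ZBTB8OS (0.88), HSBP1 (0.87) and MRPS25 (0.87), which came to 0.73, 0.76 and 0.79 over 13 libraries.

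Of 17 other basic leucine zipper genes that can share partners or sites with AP-1, 16 were tested. With IL-1ß against untreated and with MSC-CM against IL-1ß 0 were called by limma, DESeq2 or edgeR, and 4 and 1 had an unadjusted p-value under 0.05. By limma 1 fell with PRP lysate, JDP2 (3.09% of all genes called), and 2 fell with ACS, JDP2 and ATF4 (2.21% of all genes). DESeq2 called 3 of the list with PRP lysate and 3 with ACS (684 and 574 genes in all), and edgeR 2 and 3 (388 and 242 in all). JDP2 encodes a repressor that pairs with JUN proteins. Its values were 10.1, 8.69 and 7.82 CPM in untreated macrophages, 17.8, 16.5 and 16.3 CPM with IL-1ß and 17.8, 16.0 and 14.9 CPM with MSC-CM. They were 4.54, 6.03 and 6.30 CPM with PRP lysate and 9.49, 6.69 and 6.83 CPM with ACS. IL-1ß and MSC-CM libraries, low in JUN, were all high in JDP2 and the others all low, and JDP2 correlated with JUN at -0.89 over 15 libraries and -0.86 over 13. JDP2 fell by 1.44 on the log2 scale with PRP lysate (SE 0.18, limma adjusted p = 0.000416) and by 1.06 with ACS (adjusted p = 0.00653, a call lost in 2 of 6 fits that left out 1 library), whereas IL-1ß against untreated gave 0.86 (adjusted p = 0.0592).

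ATF4, which drives the amino acid and stress response, had a log2 fold change of -1.02 with ACS (limma adjusted p = 0.0365) and -0.45 with PRP lysate (adjusted p = 0.37). Its ACS values of 408, 416 and 415 CPM lay below those of IL-1ß at 619, 775 and 1223 CPM, the highest of which was replicate 3, and the call was lost without 5 of the 6 libraries left out in turn. ATF3, a stress-induced partner of JUN, was likewise lowest with IL-1ß and MSC-CM but passed in none of the 4 comparisons. It had 1258 CPM on average untreated and 724 CPM with IL-1ß (log2 fold change -0.80, limma adjusted p = 0.103), and 1093 CPM with PRP lysate (0.61, adjusted p = 0.0955).

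**Figure D4:**
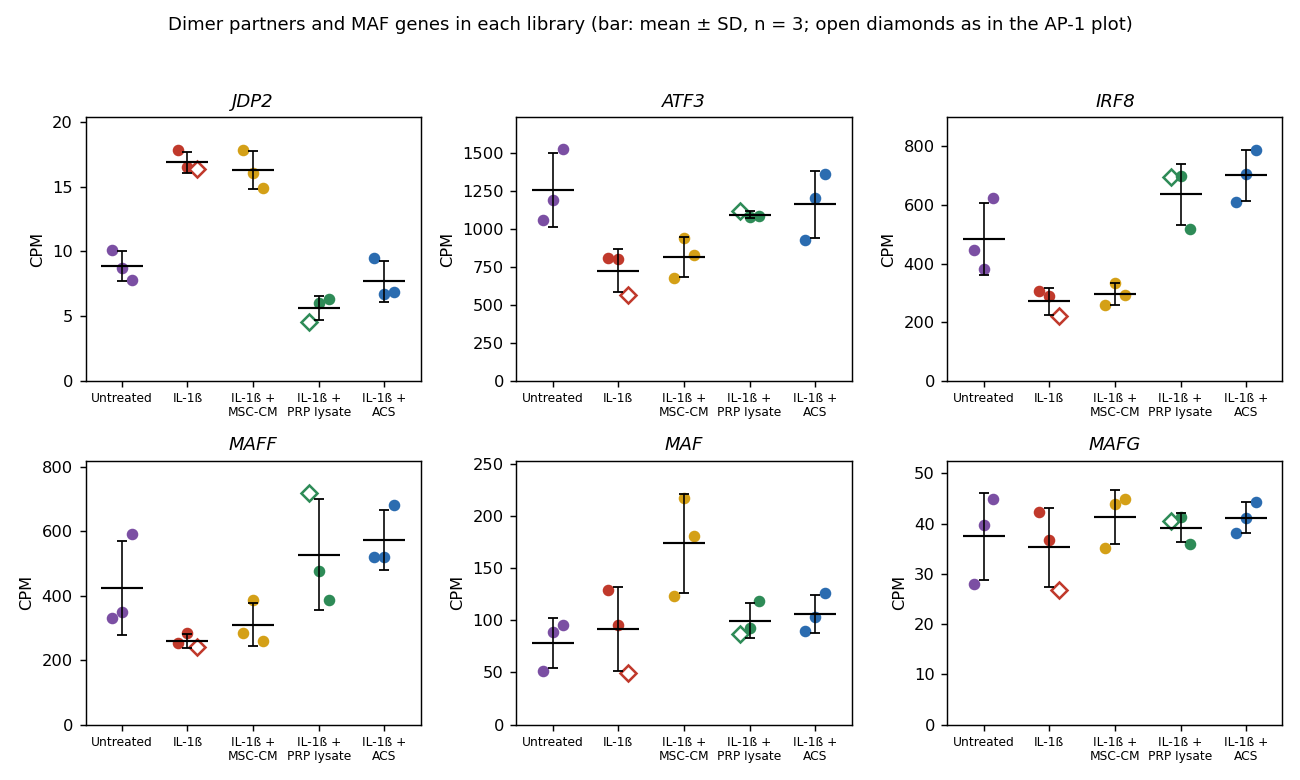
CPM (vertical axes, from 0) of JDP2, ATF3, IRF8, MAFF, MAF and MAFG in the 3 libraries of each condition (horizontal axes), with the mean and SD as black bars and the libraries that stood apart as open diamonds. JDP2 separates IL-1ß and MSC-CM (14.9 to 17.8 CPM) from the other conditions (4.54 to 10.1 CPM), and MAFF is higher in all ACS libraries (518 to 679.8 CPM) than in all IL-1ß libraries (242 to 283 CPM).

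MAF proteins are zipper factors of a neighbouring branch, of which MAF is a large member with an activation domain and the small MAFF, MAFG and MAFK lack an activation domain. Of 6 considered, MAFA and NRL stayed under the filter, MAFK was not listed and 3 were tested. With IL-1ß, MSC-CM and PRP lysate 0 were called by the 3 tools (limma called 0.292%, 0% and 3.09% of all genes), and 1 each had an unadjusted p-value under 0.05, so 0 of 3 lies near the background. MAFF rose with ACS, where limma called 2.21% of all genes, from 259 to 572 CPM on average (log2 fold change 1.13, limma adjusted p = 0.0296), a call that DESeq2 shared (adjusted p = 0.0135) and edgeR did not (0.0643) and that was lost in 5 of 6 fits without 1 library, and had 526 CPM with PRP lysate (0.98, adjusted p = 0.0452, below 2-fold). MAF averaged 173 CPM in MSC-CM libraries against 91.5 CPM in those of IL-1ß (0.98, adjusted p = 0.705), and MAFG had log2 fold changes between -0.08 and 0.24.

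Of the partners through which BATF proteins bind composite sites, IRF8 rose with both blood products and IRF4 did not pass. IRF8 had 308, 289 and 220 CPM with IL-1ß, 697, 698 and 517 CPM with PRP lysate and 610.5, 706 and 786 CPM with ACS, and neither OT overlapped with IL-1ß. The log2 fold changes were 1.22 (limma adjusted p = 0.00271) and 1.37 (adjusted p = 0.00317), and both were called in all fits that left out 1 library. IRF4 gave 0.76 (adjusted p = 0.0955) and 0.93 (adjusted p = 0.0525). With IL-1ß and with MSC-CM 0 of both genes were called by the 3 tools, with 1 and 0 at an unadjusted p-value under 0.05. Of all genes limma called 0.292% and 0% there, 3.09% with PRP lysate and 2.21% with ACS.

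Kinases and SRF cofactors lead to FOS and JUN transcription. Of 21 such genes, all tested, 0 were called by limma, DESeq2 or edgeR in any of the 4 comparisons, with 1, 1, 2 and 5 at an unadjusted p-value under 0.05 for IL-1ß, MSC-CM, PRP lysate and ACS. The shares of all genes called by limma were 0.292%, 0%, 3.09% and 2.21%, so 0 of 21 lies near the background. Of the 11628 genes tested, 1506, 651, 2038 and 2387 had an unadjusted p-value under 0.05. RPS6KA1, the most abundant, had log2 fold changes of -0.08, -0.01, 0.02 and -0.02 in the same order. Of 16 inhibitors of the route that were tested, DUSP5 and SPRY2 rose with PRP lysate and DUSP5 rose with ACS by limma (3.09% and 2.21% of all genes called). DESeq2 and edgeR called 4 and 2 with PRP lysate and 0 with ACS. With IL-1ß 0 were called by limma and edgeR and 1 by DESeq2, with 4 at an unadjusted p-value under 0.05, and with MSC-CM 0 by each of these counts. DUSP5, a nuclear phosphatase of ERK, had 42.9, 39.9 and 50.3 CPM with IL-1ß, 119, 112 and 105 CPM with PRP lysate (log2 fold change 1.32, limma adjusted p = 0.00193) and 95.2, 97.0 and 94.5 CPM with ACS (1.10, adjusted p = 0.0111, lost in 3 of 6 fits that left out 1 library). SPRY2 had a log2 fold change of 1.38 with PRP lysate (adjusted p = 0.0297), lost in 5 of 6 fits that left out 1 library, and -1.59 with IL-1ß against untreated (adjusted p = 0.0658). The median log2 fold change of these inhibitors was -0.56 for IL-1ß, 0.18 for MSC-CM, 0.59 for PRP lysate, 0.75 for ACS, against -0.07, 0.16, 0.11 and 0.13 over all genes. The 14 tested immediate early genes outside the family gave 1 call for IL-1ß, 1 for PRP lysate and 4 for ACS by limma (0.292%, 3.09% and 2.21% of all genes). DESeq2 gave 3, 2 and 4 and edgeR 1, 1 and 4 in the same order. For MSC-CM 0 were called by the 3 tools, with 2 at an unadjusted p-value under 0.05.

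Among these early genes, ARC, known as a synaptic gene and also present in dendritic cells, had the direction of FOSL1 in all 4 comparisons and was called in 3. It had 39.1, 50.3 and 69.5 CPM untreated and 12.5, 8.33 and 12.2 CPM with IL-1ß (log2 fold change -2.15, SE 0.24, limma adjusted p = 0.00222), then 49.4, 37.8 and 36.4 CPM with PRP lysate (1.82, adjusted p = 0.000715) and 21.2, 35.5 and 30.6 CPM with ACS (1.32, adjusted p = 0.0111), where the call was lost in 3 of 6 fits that left out 1 library. EGR2 and NR4A3, nuclear factors of activated cells, rose with ACS by log2 fold changes of 1.35 and 2.86, and KLF2, a factor of quiescence, had -1.74 there (limma adjusted p = 0.0416, 0.0233 and 0.0421). The calls of EGR2 and KLF2 were each lost in 5 of the 6 fits that left out 1 library, and that of NR4A3 in 3. Without IL-1ß replicate 3 the log2 fold change of NR4A3 was 2.01 (adjusted p = 0.0298).

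Genes with known AP-1 sites moved in both directions. Of 24 tested, 2 rose and 3 fell with PRP lysate (3.09% of all genes called), 2 rose and 1 fell with ACS (2.21%), and with IL-1ß or MSC-CM 0 were called by limma or edgeR. DESeq2 called 2 with IL-1ß and 0 with MSC-CM, and 5 and 4 had an unadjusted p-value under 0.05. Their median log2 fold change with PRP lysate was 0.00, against 0.11 over all genes. TNF had 39.4, 27.7 and 23.9 CPM with IL-1ß, 112, 139 and 112 CPM with PRP lysate (log2 fold change 1.99, limma adjusted p = 0.000800) and 76.8, 80.1 and 81.5 CPM with ACS (1.39, adjusted p = 0.0147), with every library of both above IL-1ß. The call with ACS was lost in 3 of 6 fits that left out 1 library. CSF2, which encodes GM-CSF, rose with PRP lysate (1.82, adjusted p = 0.00140), and ICAM1, an adhesion molecule, with ACS (1.01, adjusted p = 0.00222, lost in 2 of 6 such fits).

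In the other direction, IL6 had 59.8, 46.7 and 40.4 CPM with IL-1ß, 1.96, 12.5 and 13.9 CPM with PRP lysate and 17.5, 10.4 and 6.01 CPM with ACS (log2 fold changes -2.55 and -2.12, limma adjusted p = 0.0102 and 0.0376), the latter lost in 4 of 6 fits that left out 1 library. PRP lysate replicate 1 had the lowest IL6, and without it the log2 fold change with PRP lysate was -1.80 (adjusted p = 0.00748). The collagenase MMP1, a textbook AP-1 target, had 417, 576 and 552 CPM with IL-1ß and 100, 197 and 209 CPM with PRP lysate (-1.66, adjusted p = 0.00242), while ACS libraries had 676, 877 and 847 CPM (0.64, adjusted p = 0.208). PLAU, the urokinase gene, had -1.30 with PRP lysate (adjusted p = 0.0398), lost in 4 of 6 such fits. MMP1 and PLAU thus fell in the same PRP lysate libraries in which FOSL1 was called higher. Of 9 heat shock genes tested as a list of general stress, 0 were called by limma, DESeq2 or edgeR in any of the 4 comparisons, with 1, 0, 1 and 2 at an unadjusted p-value under 0.05, against 0.292%, 0%, 3.09% and 2.21% of all genes called, so 0 of 9 lies near the background. HSP90AA1, the most abundant, had log2 fold changes of -0.22, 0.05, 0.28 and 0.30.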

How the data were processed

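The authors trimmed the reads at a Phred score of 20, aligned them with STAR 2.7.3 to EquCab3.0, counted them with HTseq on Ensembl annotation 107 and deposited CPM per gene (per the paper's methods). The strand setting is not given in the sources used here, so overlapping and antisense genes are uncertain. Dividing by the smallest step of each library recovered whole reads for 99.7% of the values (tolerance 0.1).

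Because the values are CPM, limma with an intensity trend was applied to log2(CPM + 1) of the 11628 genes whose mean CPM reached 1, in 1 model of 15 libraries and 5 conditions, with Benjamini-Hochberg adjustment within each of 10 comparisons. Calls needed an adjusted p of at most 0.05 and at least 2-fold. Fold changes are on the log2(CPM + 1) scale, which understates those of low genes. DESeq2 and edgeR were run on the recovered reads. The other alternatives were TMM and RLE scaling, a pseudocount of 0.1, other filters, no fold threshold, 2 groups alone, a replicate block and libraries left out. The limma, DESeq2 and edgeR fits were tested on simulated reads for PRP lysate against IL-1ß, with the same spread for every gene and no library set apart. The recovery of reads, the replicate block and the fits with libraries left out were not simulated. In the data, no 2 libraries of a condition agreed within sampling noise.

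Same-numbered MSC-CM and PRP lysate libraries deviated together (correlation across genes 0.63, 0.26 and 0.42), and the numbers were taken to pair these 2 conditions because every correlation exceeded 0.1. Deviations from a mean of 3 libraries depend on each other, and replicate 1 had the lowest first component score in both conditions (-20.7 and -51.7). The pairing is therefore uncertain, and the labels do not say that a number marks a donor. The planned block was fitted without ACS, and the block on these 2 conditions alone was added after seeing the data. The other comparisons held at least 1 negative correlation, so the numbers do not pair those conditions and the block there cannot speak to a pairing. ACS titles give no numbers.

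All 9 members are named. Of the other lists, genes called in a comparison of the study, the MAF genes, 3 most similar genes per member and, for lists with no call, the most abundant gene are named. The values of ATF3 and IRF4 were added after they were seen, and 1 further gene was left out of the lists and is not reported here. The members and lists were chosen with earlier results of these data known. R 4.3.3, limma 3.58.1, edgeR 4.0.16 and DESeq2 1.42.0 were used.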

Additional observations from a re-analysis of the deposited data

Results flagged for a closer look

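The effects of PRP lysate and of MSC-CM, each measured from IL-1ß alone, differed for JUN by 0.72 on the log2 scale (limma adjusted p = 0.0157, Benjamini-Hochberg), with 178 ± 6.16 CPM against 108 ± 17.7 CPM (SD, n = 3) and higher in 3 of 3 PRP lysate libraries. With the replicate block in the fit of all numbered libraries the adjusted p for JUN was 0.0727, in a fit of both groups alone 0.0775, and from 0.0125 to 0.101 when 1 library was left out. It was 0.0124 with TMM factors, 0.0120 with RLE size factors, 0.000363 with DESeq2, 0.0183 with edgeR, 0.0109 without IL-1ß replicate 3 and PRP lysate replicate 1, and 0.0284 with the block on both conditions alone. The T cell marker sum was 1445, 625 and 765 CPM in the PRP lysate libraries, replicate 1 above and the others below the 991 to 1071 CPM with MSC-CM, and its part in this difference was not tested.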

How the results depend on the processing

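Of 90 pairs of member and comparison, 79 were never called under the main setting or any alternative run for their comparison, and 27 of these changed sign in at least 1, none larger than 0.27 on the log2 scale in the main fit. None of the 11 called pairs reversed. IL-1ß against untreated held 1 called member in the main fit, 2 with DESeq2 and without both libraries that stood apart, and 0 in a fit of these 2 groups, with the replicate block and, an alternative added after seeing the data, without all ACS libraries (0 to 1 without 1 library). PRP lysate against IL-1ß held 1, then 2 with no fold threshold and without both libraries, and 0 in a fit of 2 groups and with the replicate block (0 to 2 without 1 library). ACS against IL-1ß held 0, then 1 with DESeq2 (0 to 1 without 1 library). MSC-CM against untreated held 1, then 2 with TMM, RLE, DESeq2 and 2 groups alone, and 0 with no filter, with the replicate block and without all ACS libraries (0 without 1 library). PRP lysate against MSC-CM held 0, then 1 with DESeq2 and with no fold threshold, and 2 without both libraries (0 to 2 without 1 library); the block on these 2 groups alone, also added later, left 0. The other comparisons held 0 throughout. The cause of these shifts was not tested, except that fits of fewer libraries estimate the spread from fewer.

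Over all genes, IL-1ß against untreated held 34 calls, between 0 and 167 under the alternatives, PRP lysate 359 (56 to 684), ACS 257 (48 to 705) and MSC-CM 0 (0 to 2, with 651 genes at an unadjusted p under 0.05). With 3 libraries a group, and technical replicates in the untreated and IL-1ß groups, differences such as that of FOS were not settled at this spread.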
